A study of Mus musculus with 31 samples.

Results

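Small RNA of mouse embryonic stem cells was compared between day 8 and day 10 of Dicer1 loss, in 3 libraries per day, which are 6 of the 31 libraries of the series. The cells were XY stem cells of the DTCM23/49 lines with a conditional Dicer mutation, described as Dicer depleted in all 6 libraries, and both groups had been treated with 4-hydroxytamoxifen (4-OHT, 800 nM) to inactivate the conditional gene, in serum medium with LIF on gelatin. The groups differed only in the length of treatment, 8 or 10 days, and the labels number the libraries of each day as biological replicates 1 to 3. No untreated culture of the same ages is among these libraries, so days of treatment and days in culture cannot be told apart. The members were all 1907 mature microRNA identifiers of the deposited count table: 765 had a read at day 8 or day 10, 1142 had none, and 260 passed the filter on low counts and were tested. The filter looked at 15 small RNA libraries of days 0, 4, 8, 10 and 12, so a microRNA could pass it through its reads at an earlier day.

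MicroRNAs are short RNAs that guide Argonaute proteins to messenger RNAs and lower their translation and stability, mostly through the seed, the bases near their 5′ end. The nuclear enzyme Drosha releases a hairpin from the primary transcript, and Dicer cuts the loop from that hairpin to leave a duplex, of which usually 1 strand (the guide arm, from the 5p or the 3p side) is kept by Argonaute while the other is degraded. When Dicer is lost, no new duplexes are made from most hairpins, and the remaining microRNAs are lost by decay and by dilution as the cells divide. Mouse embryonic stem cells rely on the miR-290 and miR-302 clusters, which share a seed and favour passage from G1 to S phase, and on the miR-17 cluster family, which promotes growth and survival.

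The sequences below are those on which the comparison turned: stem cell microRNAs that fell, a cluster and a family whose members differed in how much was kept, and arms of a hairpin that changed unequally. They are RefSeq mature sequences for the mouse assembly GRCm38.p6 (mm10), written 5′ to 3′ with the seed (bases 2 to 8) in capitals; 1623 of the 1907 identifiers had such a sequence, and 227 of the 260 tested. The first group shares the seed of the miR-290 and miR-302 clusters.
miR-295-3p: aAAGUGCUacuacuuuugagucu
miR-294-3p: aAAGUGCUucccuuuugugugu
miR-291a-3p: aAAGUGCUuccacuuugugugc
miR-302d-3p: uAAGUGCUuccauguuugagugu
The next pair, from the miR-17 and miR-106b clusters, shares another seed.
miR-92a-3p: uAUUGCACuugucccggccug
miR-25-3p: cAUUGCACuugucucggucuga
The miR-182 cluster is transcribed as a unit but has 3 different seeds.
miR-182-5p: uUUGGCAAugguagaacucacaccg
miR-183-5p: uAUGGCACugguagaauucacu
miR-96-5p: uUUGGCACuagcacauuuuugcu
The miR-15 family members have a common seed.
miR-16-5p: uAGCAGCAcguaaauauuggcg
miR-15b-5p: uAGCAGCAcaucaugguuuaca
miR-195a-5p: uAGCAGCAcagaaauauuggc
miR-497a-5p and miR-322-5p have the same seed and are described with them. The remaining sequences belong to single microRNAs with large falls, to the entry that held the most reads at day 10, and to the arms of 2 hairpins.
miR-99b-5p: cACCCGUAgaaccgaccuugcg
miR-381-3p: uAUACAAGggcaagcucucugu
miR-2137: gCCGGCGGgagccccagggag
miR-101a-3p: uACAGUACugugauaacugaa
miR-101a-5p: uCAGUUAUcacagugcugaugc
miR-21a-5p: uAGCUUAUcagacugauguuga
miR-21a-3p: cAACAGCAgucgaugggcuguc

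In RefSeq's annotation of GRCm38.p6, miR-295-3p lies at chr7:3220815-3220837 on the plus strand in an exon of D7Ertd143e. A copy of miR-92a-3p lies at chr14:115044476-115044496 on the plus strand, and the annotation gives 2 loci for it. miR-182-5p (chr6:30165962-30165986), miR-96-5p (chr6:30169506-30169528) and miR-183-5p (chr6:30169711-30169732) lie on the minus strand with no other gene there. miR-16-5p (chr3:69009918-69009939, plus strand) has 2 loci, of which this one is in an exon of Smc4. miR-21a-5p (chr11:86584120-86584141, minus strand) is in an exon of Vmp1, and miR-99b-5p (chr17:17830194-17830215, plus strand) in an exon of Spaca6. miR-381-3p (chr12:109726870-109726891, plus strand) belongs to the imprinted Dlk1-Dio3 cluster, and miR-2137 (chrX:72992113-72992133, plus strand) lies in an intron of Zfp185.

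The libraries held 11637367 to 14851928 reads in all, of which 117027 to 220186 fell on microRNAs at day 8 and 68932 to 84882 at day 10. MicroRNAs took 1.48%, 0.885% and 1.01% of all reads in replicates 1, 2 and 3 of day 8, and 0.686%, 0.484% and 0.589% at day 10; with so many reads the widest 95% Wilson interval, for replicate 1 of day 8, ran from 1.48 to 1.49%, and such intervals cover counting error only. The mean share was 1.12% ± 0.316 (SD, n = 3) at day 8 and 0.586% ± 0.101 at day 10, a 1.92-fold lower level. Every day 10 library was below every day 8 library, and the exact two-sided permutation p was 0.1, the smallest that 3 against 3 libraries can give. Replicate 1 of day 8 stood above the other 2 of its day, and without it the share was 1.61-fold lower. Unaligned reads were 18.5% ± 5.69 of all reads at day 8 and 23.2% ± 5.12 at day 10. As a percentage of aligned reads only, microRNAs took 1.40% ± 0.484 at day 8 and 0.772% ± 0.182 at day 10. That level was 1.81-fold lower (exact permutation p = 0.1). Reads that HTSeq set aside for low mapping quality were 58.7% ± 6.63 of all reads at day 8 and 52.1% ± 5.82 at day 10, and their part in the result was not tested. In bulk RNA, fewer cells with a microRNA and less of it per cell cannot be told apart.

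**Figure D1:**
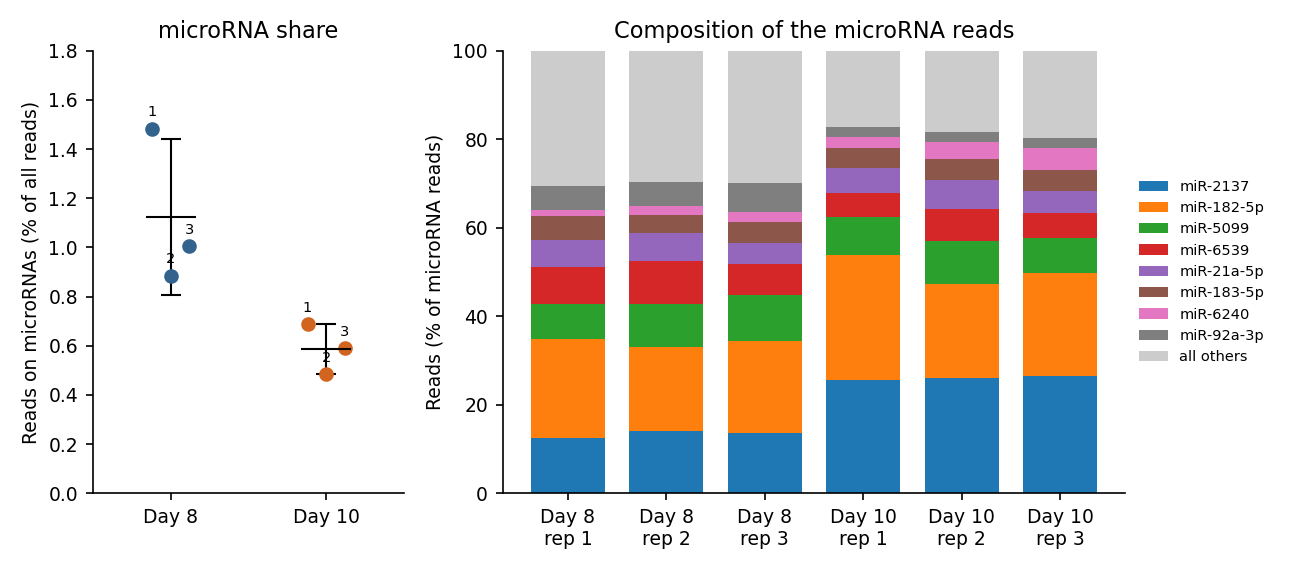
Left, reads on microRNAs as a percentage of all reads (vertical axis) in each library, with its replicate number, and the mean and SD of 3 libraries per day. Right, the make-up of the microRNA reads of each library, with the 8 microRNAs most abundant at day 10 stacked in colour and all others in light grey. All day 10 shares lie below all day 8 shares, while miR-2137 takes a larger part of each day 10 library.

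Levels are given as RPM, reads per 1000000 reads of any kind in a library, and changes as the log2 difference of day 10 against day 8 in a model of the 15 libraries, tested with edgeR's quasi-likelihood test and called at a Benjamini-Hochberg adjusted p under 0.05 over the 260 tested microRNAs. In RPM, 171 microRNAs fell and 2 rose (65.8% and 0.769% of those tested, 66.5% in all), and the median log2 change was -1.63. For 159 of the 260 (61.2%) every day 10 library was below every day 8 library, and for 1 (0.385%) every day 10 library was above. The median microRNA kept 31.6% of its day 8 level, with a 10th percentile of 14.5% and a 90th percentile of 101%. At the ends, 89 microRNAs kept at most 25% and 54 kept at least 75%. The median microRNA thus kept less than the 52.2% that the sum of microRNA reads kept. The 10 most abundant at day 8 held 78.2% of microRNA reads at day 8 and 84.5% at day 10, and 9 of them were also among the 10 most abundant at day 10.

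A second scaling, TMM, compares each microRNA with the others and so asks which were lost faster or slower than the rest. On this relative scale 58 microRNAs rose and 41 fell (22.3% and 15.8%, or 38.1% in all). The split rests on what is taken as unchanged: with all microRNA reads as library size 22 rose and 100 fell (median log2 change -0.69, against -0.05 with TMM), with RLE factors 75 rose and 31 fell, and with DESeq2 83 rose and 39 fell. Of the 171 that fell in RPM, 41 also fell relative to other microRNAs, 123 did not change relative to them past the threshold, and 7 rose relative to them. A further 49 rose relative to the others without a call in RPM, and 38 were called on neither scale.

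**Figure D2:**
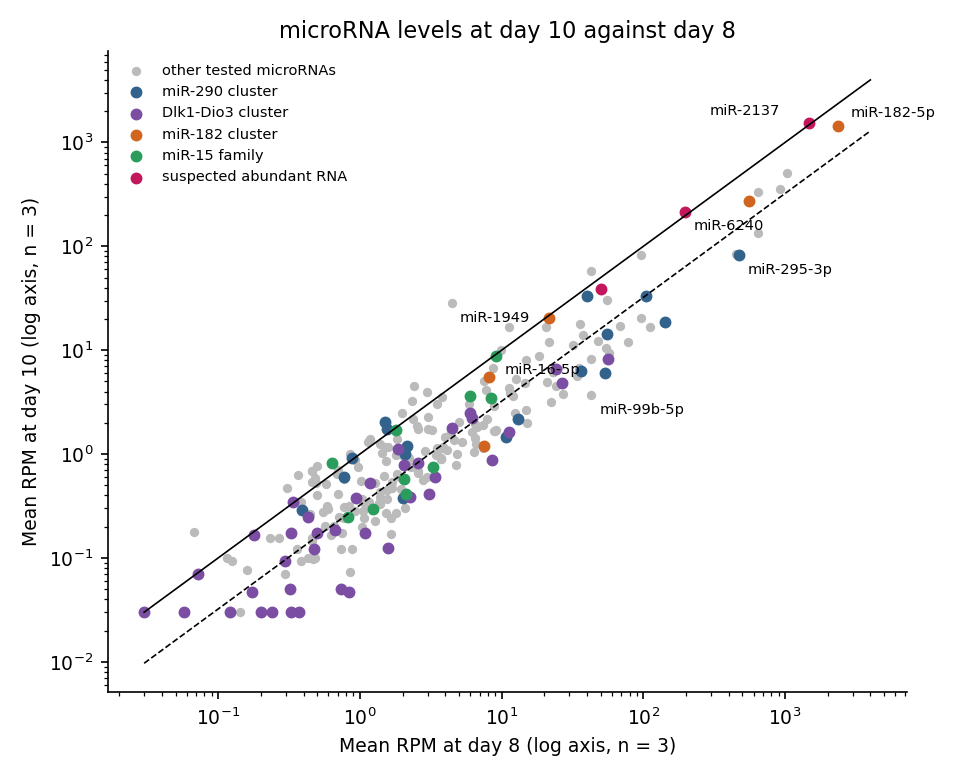
Mean RPM of the 260 tested microRNAs at day 8 (horizontal) and day 10 (vertical), both on log axes and over 3 libraries, with means under 0.03 RPM drawn at 0.03. The solid line marks equal levels and the dashed line the median log2 change of -1.63. miR-295-3p and miR-99b-5p lie below the dashed line, miR-2137 and miR-6240 near the solid line, and miR-1949 above it.

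Among the 10 most abundant microRNAs of day 8, miR-295-3p, miR-92a-3p and miR-22-3p kept the smallest parts, 17.4%, 20.6% and 18.8%. miR-295-3p, the leading product of the miR-290 cluster, stood at 611, 366.9 and 437 RPM in the 3 day 8 libraries and at 91.4, 73.3 and 82.3 RPM at day 10, so that the groups were far apart and the day 10 libraries close together. It fell by 2.52 ± 0.26 (SE) on the log2 scale (edgeR adjusted p = 4.79e-08). miR-92a-3p, a miR-17 cluster member that restrains Bim and other death factors, went from 810, 475 and 657 RPM to 158, 112 and 131 RPM, again with no overlap, and fell by 2.28 ± 0.27 (edgeR adjusted p = 1.65e-07). miR-22-3p, known to act on Tet enzymes, went from 603, 343 and 410 RPM to 96.4, 68.1 and 89.9 RPM and fell by 2.41 ± 0.31 (edgeR adjusted p = 4.59e-07). All 3 also fell relative to other microRNAs, by 0.94, 0.71 and 0.83 on the log2 scale (edgeR adjusted p = 0.000247, 0.00227 and 0.00042). 

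The miR-290 cluster as a whole kept 22% of its RPM: its summed level was 1310, 730 and 776 RPM at day 8 and 232, 174 and 212 RPM at day 10. Of its 18 identifiers 17 were tested, 11 fell in RPM and none rose, with a median log2 change of -1.64 against -1.63 over all tested; the 6 others were not called. For 11 members every day 10 library lay below every day 8 library. Over all tested microRNAs 65.8% fell in RPM, and for 61.2% every day 10 library lay below every day 8 library. The cluster's share of microRNA reads went from 8.27% to 3.53%, and as the markers that define embryonic stem cells these microRNAs were still read in all 6 libraries. The members changed unequally: miR-293-3p, miR-292a-5p and miR-294-3p fell, with log2 changes of -3.13 ± 0.36, -2.94 ± 0.33 and -2.89 ± 0.42 (edgeR adjusted p = 1.26e-07, 1.06e-07 and 2.62e-06), whereas miR-293-5p fell by 1.64 ± 0.26 (1.01e-05). The members on the opposite strand, all under 2 RPM at day 8, did not pass the test in RPM; among them miR-290b-3p stood at 1.95, 0.816 and 1.72 RPM at day 8 and 1.70, 1.75 and 2.68 RPM at day 10, overlapping groups. On the relative scale 6 members of the cluster fell and 5 rose (15.8% and 22.3% over all tested).

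The miR-302 cluster, the related cluster with the same seed, kept 34.7%, from 58.4, 30.4 and 21.8 RPM in sum to 14.4, 12.4 and 11.7 RPM. Of its 7 tested members (of 10 identifiers) 6 fell in RPM (65.8% over all tested), with a median of -1.57. None was called relative to other microRNAs. The log2 changes of miR-302a-3p, miR-302b-3p and miR-367-3p were -1.73 ± 0.31, -1.78 ± 0.37 and -1.86 ± 0.55 (edgeR adjusted p = 3.99e-05, 0.000175 and 0.00483); without replicate 1 of every day miR-367-3p was at -1.08 and missed the threshold (0.151). By seed, the 5 tested microRNAs with a RefSeq sequence that holds the miR-295-3p seed (miR-291a-3p, miR-294-3p, miR-295-3p, miR-302b-3p and miR-302d-3p) all fell and together kept 17.8%, a sum dominated by miR-295-3p. Within that group miR-302d-3p kept 33.9% and miR-294-3p 13.5%, so that sharing the seed went with a range of losses.

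The miR-17 cluster and its paralogs kept between 19% and 28.6%. Beside the counts of members below, 65.8% of all tested microRNAs fell in RPM. The miR-17 cluster kept 21.1% in sum (846, 496 and 676 RPM against 166, 118 and 141 RPM), with 7 of 9 tested members lower in RPM and a median of -1.84. Its paralog in an intron of Mcm7, the miR-106b cluster, kept 19% with 4 of 5 lower (median -1.76), and the X-linked miR-106a cluster kept 28.6% with 4 of 5 lower (median -1.66). Most of the miR-17 cluster sum was miR-92a-3p. Its mean was 647 of 673 RPM at day 8 and 134 of 142 RPM at day 10. miR-92a-3p has 2 loci and was counted with the miR-17 cluster only, so the miR-106a figure leaves it out. The log2 changes of miR-25-3p, miR-20a-5p and miR-93-5p were -2.73 ± 0.30, -2.59 ± 0.43 and -2.08 ± 0.29 (edgeR adjusted p = 9.4e-08, 1.6e-05 and 1.19e-06). Of those with a RefSeq sequence, the 5 tested microRNAs with the miR-92a-3p seed (miR-92a-3p, miR-25-3p, miR-92b-3p, miR-363-3p and miR-367-3p) all fell and together kept 20.5%; the 6 with the seed of miR-17-5p all fell and kept 23.3%.

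The products of the miR-182 cluster differed in how much was kept. miR-182-5p, the most abundant microRNA of day 8, stood at 3309, 1670 and 2111 RPM at day 8 and 1940, 1030 and 1376 RPM at day 10; the highest day 10 library was above the lowest day 8 library. Its log2 change in RPM was -0.71 ± 0.37 (edgeR adjusted p = 0.1), which missed the threshold. It passed under 6 alternatives, among them the replicate number as a block (-0.69, edgeR adjusted p = 0.0349) and leaving out replicate 1 of day 10 (-0.97, 0.049). miR-183-5p, from 828, 372 and 477 RPM to 309, 233 and 283 RPM without overlap, fell by 1.02 ± 0.30 (edgeR adjusted p = 0.00474), but not past the threshold without replicate 1 of day 8, when the change was -0.63 (edgeR adjusted p = 0.0672). miR-96-5p went from 12.3, 6.38 and 3.69 RPM to 1.13, 1.68 and 0.775 RPM and fell by 2.64 ± 0.44 (edgeR adjusted p = 1.39e-05). The 3 main products of 1 primary transcript thus kept 61.3%, 49.2% and 16% of their levels.

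The passenger arm miR-182-3p stood at 30.6, 16.1 and 18.6 RPM at day 8 and at 21.3, 17.5 and 21.9 RPM at day 10, overlapping, with a log2 change of -0.11 ± 0.29 (edgeR adjusted p = 0.768). At days 0, 4 and 12 the means of this arm were 18.4, 12.2 and 18.8 RPM. From day 4 to day 8 it rose by 0.83 on the log2 scale (edgeR adjusted p = 0.00954). Whether its reads are products of Dicer was not tested. In sum the cluster kept 59.1%, or 74.7% without replicate 1 of day 8, and 2 of 5 tested members fell (65.8% over all tested). Its share of microRNA reads went from 25.9% to 29.5%. Relative to other microRNAs 4 of the 5 rose and miR-96-5p fell by 0.99 (edgeR adjusted p = 0.027). That fall missed the threshold under 7 alternatives, among them leaving out replicate 1 or 2 of day 8 (-0.88 and -0.96, edgeR adjusted p = 0.0633 and 0.0597) or replicate 1 or 3 of day 10 (-0.90 and -0.79, edgeR adjusted p = 0.102 and 0.115). miR-182-5p rose by 0.88 ± 0.25 with TMM (edgeR adjusted p = 0.0113), but only by 0.23 with all microRNA reads as library size (edgeR adjusted p = 0.399) and by 0.69 without replicate 1 of day 10 (0.0665), and miR-183-5p rose by 0.60 with TMM and was at -0.042 with all microRNA reads as library size.

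miR-21a-5p, a microRNA that restrains Pdcd4, was likewise partly kept: from 903, 558 and 473 RPM to 386, 317 and 298 RPM, without overlap. It fell by 0.95 ± 0.29 on the log2 scale (edgeR adjusted p = 0.00567) and kept 51.8%; without replicate 1 of day 8 the change was -0.63 (0.0614). Relative to other microRNAs it rose by 0.65 ± 0.15 with TMM (edgeR adjusted p = 0.00419), but was at 0.01 with all microRNA reads as library size (edgeR adjusted p = 0.955), and missed the threshold without replicate 1 of every day (0.0865).

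Members of the miR-15 family, which share targets such as Bcl2 and D-type cyclins, differed widely though their seed is the same. miR-16-5p stood at 17.3, 2.00 and 7.99 RPM at day 8 and 10.9, 6.18 and 9.45 RPM at day 10, so the day 10 libraries lay inside the day 8 range, and its log2 change was -0.05 ± 0.47 (edgeR adjusted p = 0.932). Its mean was 2.81 RPM at day 0, 3.55 RPM at day 4 and 9.10 RPM at day 8. From day 4 to day 8 it rose by 1.36 on the log2 scale (edgeR adjusted p = 0.0122). It has 2 loci, and the source of its reads was not tested. miR-195a-5p fell by 1.28 ± 0.32 (edgeR adjusted p = 0.0013), from 11.9, 4.75 and 8.76 RPM to 4.37, 2.74 and 3.38 RPM. The log2 changes of miR-497a-5p and miR-322-5p were -2.33 ± 0.43 and -2.11 ± 0.46 (edgeR adjusted p = 6.03e-05 and 0.000334), while miR-15b-5p was at -0.74 ± 0.33 (0.0525). The change of miR-15b-5p passed the threshold under 4 alternatives: with DESeq2 (adjusted p = 0.0253), without replicate 2 of day 8 (-0.996, edgeR adjusted p = 0.00944), without replicate 1 of day 10 (-0.87, 0.0496) and with reads on no feature as library size (-0.88, 0.0208). The family kept 58.1% in sum, and 76.4% without replicate 1 of day 8. Of its summed 35.9 RPM at day 8 and 20.8 RPM at day 10, miR-16-5p held 9.10 RPM and 8.85 RPM. In RPM 6 of its 10 tested members fell (65.8% over all tested), with a median of -1.51. These sums and counts include opposite arms of the hairpins, such as miR-195a-3p, which do not share the seed. The 6 tested microRNAs with a RefSeq sequence that holds the seed kept 57% in sum, with 4 lower and a median of -1.56. On the relative scale miR-16-5p rose by 1.65 ± 0.43 (edgeR adjusted p = 0.0072) and miR-15b-5p by 0.84 ± 0.22 (0.0081); with all microRNA reads as library size the values were 0.99 and 0.20 (edgeR adjusted p = 0.0636 and 0.435), and without replicate 1 of day 8 miR-15b-5p was at 0.61 (0.0644).

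The largest falls, among microRNAs with at least 50 reads per 1000000 microRNA reads at either day, were led by the imprinted cluster on chromosome 12 and by miR-99b-5p. miR-376b-3p fell by 3.87 ± 0.75 on the log2 scale (edgeR adjusted p = 0.000104) from 1.21, 0.520 and 0.773 RPM to reads in replicate 2 only, at 0.140 RPM. The log2 changes of miR-666-5p, miR-673-5p and miR-381-3p were -3.66 ± 0.87, -3.61 ± 0.53 and -3.27 ± 0.41 (edgeR adjusted p = 0.00075, 2.8e-06 and 3.5e-07); these 4 belong to the imprinted Dlk1-Dio3 cluster on chromosome 12. That cluster kept 21.4%, with 27 of 38 tested members lower in RPM and 22 without overlap between the days. Over all tested microRNAs the shares were 65.8% and 61.2%. The median log2 change of the cluster was -1.88, or -1.70 with the 4 members at 0 at day 10 set to a floor of 3 counts over the group. Relative to other microRNAs 3 of the 38 fell and 2 rose (15.8% and 22.3% over all tested). miR-127-3p, its most abundant tested member, which lies opposite Rtl1, went from 75.3, 49.7 and 43.7 RPM to 6.87, 11.6 and 6.20 RPM.

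miR-99b-5p had the largest fall of the microRNAs above 10 RPM at day 8, from 66.1, 43.2 and 18.7 RPM to 4.20, 2.88 and 4.02 RPM, by 3.53 ± 0.41 on the log2 scale (edgeR adjusted p = 1.65e-07), and it also fell relative to other microRNAs by 1.92 ± 0.33 (edgeR adjusted p = 0.000427). Its day 8 libraries differed by more than its day 10 libraries. miR-125a-5p, the neighbour of miR-99b-5p in the transcript of Spaca6, fell by 2.43 ± 0.32 (edgeR adjusted p = 6.42e-07), and the miR-125 and miR-99 families kept 13.7% with 4 of 5 tested members lower (median -2.43). The miR-200 family, which guards the epithelial state through Zeb1 and Zeb2, kept 21.3% with 4 of 5 lower (median -2.39); the log2 changes of miR-200b-3p and miR-141-3p were -2.47 ± 0.31 and -2.39 ± 0.39 (edgeR adjusted p = 3.5e-07 and 1.08e-05). The miR-23a and miR-23b clusters kept 22.1% with 5 of 7 lower (median -1.74); miR-27b-3p, the most abundant of them, was at -2.25 ± 0.27 (edgeR adjusted p = 2.26e-07). The miR-30 family kept 29.4% with 7 of 10 lower (median -1.59): the log2 changes of miR-30e-5p, miR-30a-5p and miR-30b-5p were -2.36 ± 0.29, -2.01 ± 0.28 and -0.91 ± 0.30 (edgeR adjusted p = 3.21e-07, 1.36e-06 and 0.0105), and miR-30b-5p missed the threshold with no filter on low counts (0.074) and with only the libraries of days 8 and 10 (0.0572). The intronic Sfmbt2 cluster kept 26.3%, with 6 of 6 tested members lower (median -1.98). Beside the counts of these lists, 65.8% of all tested microRNAs fell in RPM.

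**Figure D3:**
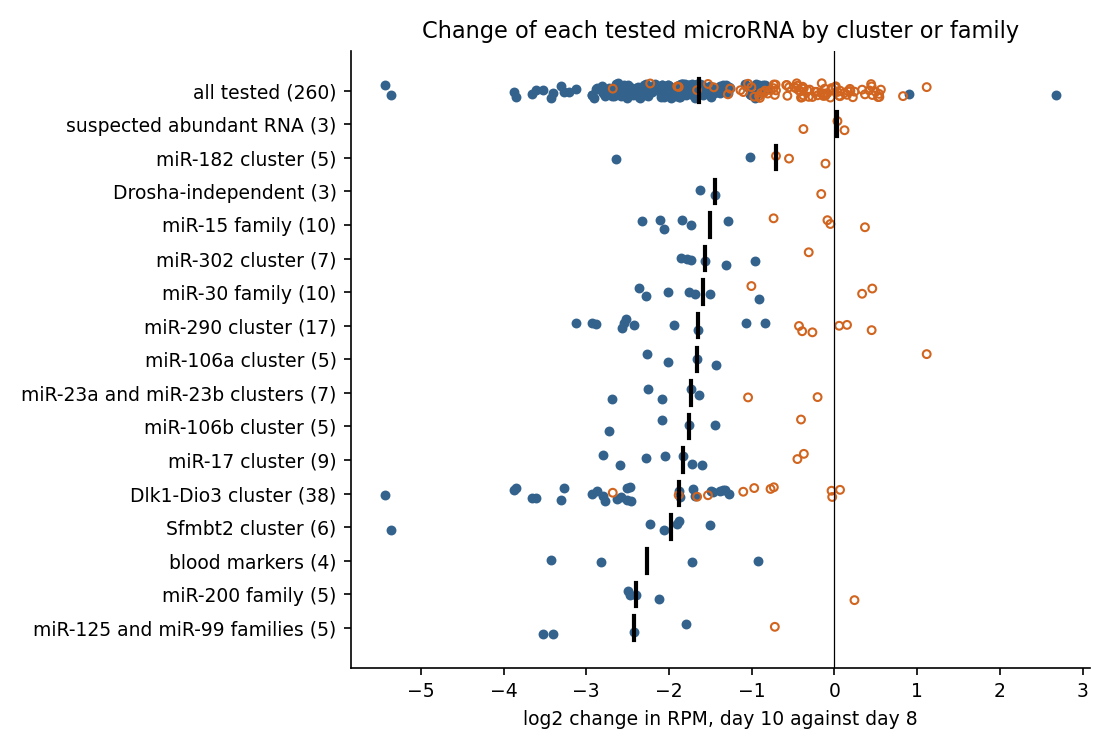
Log2 change in RPM (horizontal) of each tested microRNA, by cluster, family or marker list, with the number tested in parentheses. Filled points passed the threshold, open points did not, black bars are medians and the vertical line marks no change. The medians of most lists lie near the -1.63 of all tested microRNAs, while the miR-182 cluster and the suspected entries lie closer to 0.

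None of a further group of 3 entries was called in RPM. miR-2137, miR-6240 and miR-6236 are entries listed because their reads were suspected to come from ribosomal or other abundant RNA; whether they are products of Dicer was not tested. miR-2137 stood at 1851, 1250 and 1358 RPM at day 8 and 1756, 1255 and 1562 RPM at day 10, overlapping, with a log2 change of 0.04 ± 0.27 (edgeR adjusted p = 0.923), or -0.12 with reads on no feature as library size. miR-6240 was at 0.12 ± 0.31 (edgeR adjusted p = 0.759), or -0.05 with reads on no feature as library size, and miR-6236 at -0.38 ± 0.37 (0.393). Without replicate 2 of day 10 miR-6236 was at -0.90 and passed (edgeR adjusted p = 0.0478). The summed level of the 3 was 1734 ± 310 RPM (SD, n = 3) at day 8 and 1778 ± 239 RPM at day 10. Their share of microRNA reads went from 15.7% to 30.5%, and miR-2137 alone from 13.4% ± 0.83 to 26.0% ± 0.46. Without these entries microRNAs took 0.951% ± 0.285 of all reads at day 8 and 0.409% ± 0.0799 at day 10, a 2.33-fold lower level, with an exact permutation p of 0.1.

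Of the other entries above 500 RPM, miR-5099 went from 1183, 865 and 1040 RPM to 585, 468 and 458 RPM and miR-6539 from 1224, 855 and 704 RPM to 383, 351 and 335 RPM, neither with overlap. The log2 changes were -1.03 ± 0.25 and -1.38 ± 0.27 (edgeR adjusted p = 0.000964 and 0.00011). At day 0 their means were 1121 and 370 RPM, and at day 8 they were 1030 and 928 RPM. Both are counted in the level without the 3 suspected entries, and whether they are products of Dicer was not tested. miR-5126, which was not among the 10 most abundant at day 8 and was at day 10, stood at 112, 82.3 and 93.3 RPM and then 86.1, 71.9 and 89.9 RPM, and its log2 change was -0.21 ± 0.29 (edgeR adjusted p = 0.55).

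Hairpins with another route of maturation were few. Mirtrons and short hairpins need Dicer but not Drosha: miR-320-3p and miR-484 fell, with log2 changes of -1.44 ± 0.34 and -1.63 ± 0.48 (edgeR adjusted p = 0.000778 and 0.00469), while the mirtron miR-877-5p, at 0.808, 0.223 and 0.687 RPM and then 0.404, 0.632 and 0.493 RPM, was at -0.16 ± 0.50 (0.8). The fall of miR-484 missed the threshold without replicate 1 of day 8 (edgeR adjusted p = 0.0542). miR-451a, which Argonaute 2 matures without Dicer, had too few reads to be tested, with 0.404, 0.223 and 0.0859 RPM at day 8 and 3.23, 0.211 and 0.423 RPM at day 10, high in 1 library only.

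The 2 microRNAs that rose in RPM differed in how firm the rise was. miR-1949, in an intron of Snhg4 on chromosome 18, stood at 4.51, 3.41 and 5.41 RPM at day 8 and at 25.7, 28.2 and 31.5 RPM at day 10, the only tested microRNA with every day 10 library above every day 8 library. It rose by 2.68 ± 0.35 on the log2 scale (edgeR adjusted p = 4.58e-07). Its mean was 7.70 RPM at day 0, 5.02 RPM at day 4 and 3.00 RPM at day 12, so that day 10 stood above the other days.

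miR-181a-2-3p, the lesser arm of a miR-181 hairpin, went from 3.43, 1.04 and 2.75 RPM to 5.90, 3.37 and 4.37 RPM, which overlap, and rose by 0.91 ± 0.40 (edgeR adjusted p = 0.0469). This call was lost without replicate 2 of day 8 (log2 change 0.54, edgeR adjusted p = 0.217), without replicate 3 of day 8, and without replicate 1 or 3 of day 10. The call was also lost with DESeq2 (DESeq2 adjusted p = 0.0542), with no filter on low counts and with only the libraries of days 8 and 10. Nor did it pass with reads on no feature as library size or without replicate 1 of every day. Relative to other microRNAs miR-181a-2-3p rose by 2.52 ± 0.26 (edgeR adjusted p = 9.54e-06). let-7i-5p, the only tested member of the let-7 family, which marks differentiated cells, was at 0.269, 0.148 and 0.687 RPM and then 0.566, 0.351 and 0.987 RPM, with a log2 change of 0.83 ± 0.61 (edgeR adjusted p = 0.249).

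The 2 arms of a hairpin come from 1 cut by Dicer. Their ratio compares loss within a precursor if the reads of both arms are such products, which was not tested. Both arms were tested for 53 hairpins, and in 12 (22.6%) the ratio of arms changed between the days (edgeR's quasi-likelihood test with a term for each library, adjusted p under 0.05). In 10 of them (18.9%) the arm that was more abundant at day 0 fell more than its partner, and in 2 (3.77%), miR-293 and miR-135b, it fell less; the arms of miR-135b were nearly equal at day 0 (13.4 RPM for 5p and 13.5 RPM for 3p). Counting all 53 hairpins whatever their p, the more abundant arm fell more in 35, with a median difference of -0.34 on the log2 scale. With both arms at 50 or more reads per 1000000 microRNA reads at day 8 there were 39 hairpins, of which 11 were called.

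The hairpin with the largest change was miR-101a, whose 3p arm is known to target Ezh2. The 3p arm stood at 20.6, 12.0 and 12.5 RPM at day 8 and 1.70, 1.89 and 2.40 RPM at day 10, while the 5p arm, with 6 to 16 reads a library, stood at 1.08, 0.965 and 0.516 RPM and then 1.29, 0.842 and 0.846 RPM. The log2 ratio of 3p over 5p changed by -3.08 ± 0.39 (edgeR adjusted p = 6.9e-07), and miR-101a-3p fell by 2.90 ± 0.33 in RPM (1.24e-07), while the days overlapped for the 5p arm.

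For miR-295 the 3p arm had 9081, 4943 and 5090 reads at day 8 and 1130, 1045 and 1167 at day 10, against 949, 192 and 484 and then 521, 285 and 532 reads of the 5p arm. The ratio of 3p over 5p changed by -2.38 ± 0.36 (edgeR adjusted p = 9.03e-06). In RPM the days overlapped for miR-295-5p, with a log2 change of -0.27 ± 0.41 (edgeR adjusted p = 0.591). The 5p arm, a minor product at day 0 with a mean of 95.4 RPM against 20702 RPM for the 3p arm, stood at a mean of 33.2 RPM against 82.3 RPM at day 10. miR-25 changed likewise, by -2.33 ± 0.30 (edgeR adjusted p = 6.9e-07), and so did miR-27b, by -2.07 ± 0.58 (0.00872), whose 5p arm had at most 8 reads in a library.

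In miR-21a the 5p arm is the abundant one. miR-21a-5p fell while miR-21a-3p, with 69.6, 13.8 and 44.8 RPM and then 87.5, 21.4 and 65.5 RPM, was at 0.44 ± 0.52 (edgeR adjusted p = 0.486); replicate 2 was the lowest of its day at both days. The ratio of 3p over 5p changed by 1.39 ± 0.48 (edgeR adjusted p = 0.0311), though the ratios of the days overlapped. miR-293 went the other way: its 3p arm, slightly the lesser at day 0 (1849 RPM against 2366 RPM), fell more than the 5p arm, with a log2 change of the ratio of 3p over 5p of -1.37 ± 0.24 (edgeR adjusted p = 4.46e-05).

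**Figure D4:**
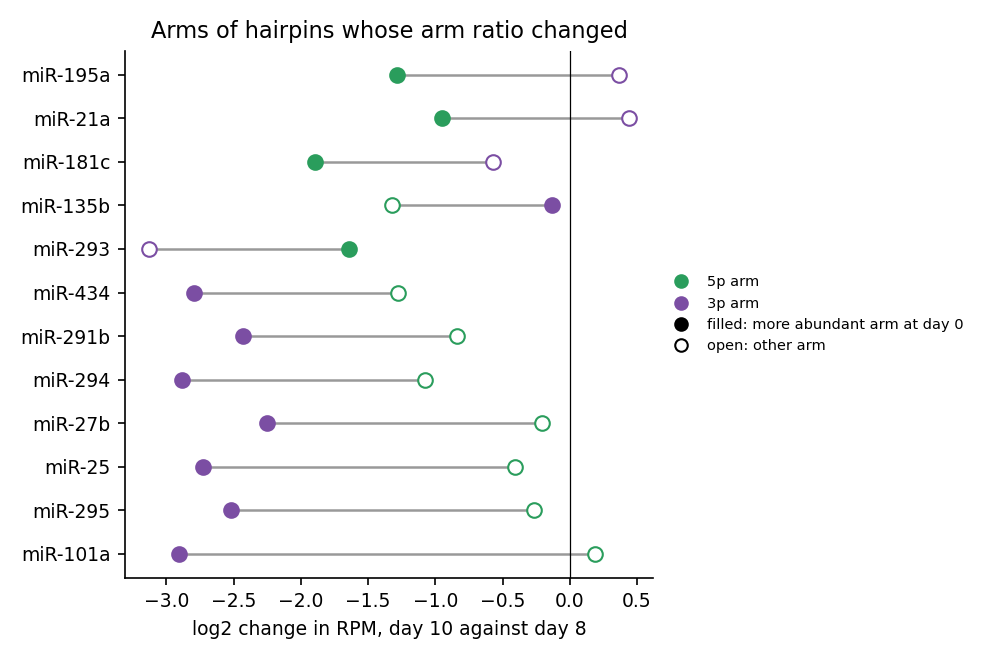
Log2 change in RPM (horizontal) of the 5p arm (green) and the 3p arm (purple) of the 12 hairpins whose arm ratio changed; the arm with more reads at day 0 is filled and the other is open. In 10 hairpins the filled point lies to the left of the open one, and in miR-293 and miR-135b to the right.

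The loss per day was compared with that of the neighbouring intervals, which share the day 8 or the day 10 libraries with this one, in 1 model that accounts for the sharing. The median log2 change in RPM per day was -1.07 from day 4 to day 8, -0.82 from day 8 to day 10 and -0.27 from day 10 to day 12. Against days 4 to 8 the daily change differed for 15 microRNAs (5.77%), 11 (4.23%) with a higher and 4 (1.54%) with a lower daily change after day 8. miR-6539 and miR-5099 were not lower at day 8 than at day 4 (means of 653 and 928 RPM, and of 931 and 1030 RPM) and then fell, so that their daily change differed by -0.82 ± 0.17 and -0.55 ± 0.16 (edgeR adjusted p = 0.00966 and 0.041). miR-25-5p changed by -1.28 per day from day 4 to day 8 and by -0.20 per day after it, a difference of 1.07 ± 0.24 (edgeR adjusted p = 0.0128), and miR-298-5p, from an imprinted locus on chromosome 2, differed by 0.64 ± 0.18 (0.0404). These counts rest on single libraries: 2 calls remained without replicate 1 of day 10 or without replicate 3 of day 10, 5 without replicate 2 of day 8 and 8 without replicate 3 of day 8. The miR-5099 call was lost on leaving out any 1 library of day 8 or day 10 (edgeR adjusted p 0.0608 to 0.137). That of miR-298-5p was lost, among others, without replicate 2 of day 8 (edgeR adjusted p = 0.22). The miR-6539 call was lost without replicate 3 of day 10 (0.0549), and that of miR-25-5p without replicate 1 of day 10 (0.0677).

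Against days 10 to 12 the daily change differed for 35 microRNAs (13.5%): it was higher after day 10 for 33 (12.7%) and lower for 2 (0.769%), miR-1949 and miR-143-3p. miR-295-3p changed by -1.26 per day from day 8 to day 10 and by -0.29 per day from day 10 to day 12, a difference of 0.97 ± 0.22 (edgeR adjusted p = 0.00885). For miR-99b-5p the difference was 1.98 ± 0.37 (edgeR adjusted p = 0.00169), for miR-293-3p 1.40 ± 0.31 (0.00885), for miR-191-5p 1.22 ± 0.23 (0.00172) and for miR-22-3p 0.82 ± 0.27 (0.0399). miR-182-5p changed by -0.79, -0.35 and -0.16 per day over the 3 intervals and passed neither test. These calls too depend on the day 10 libraries, with 14, 6 and 5 calls without replicate 1, 2 and 3 of day 10.

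**Figure D5:**
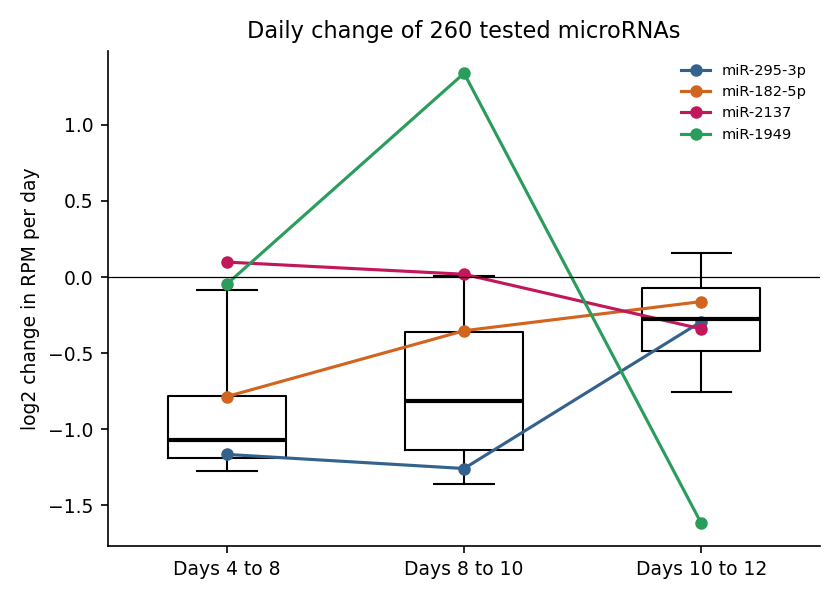
Log2 change in RPM per day (vertical) of the 260 tested microRNAs over 3 intervals of treatment: boxes span the quartiles, thick lines are medians, whiskers run from the 10th to the 90th percentile, and 4 microRNAs are drawn as coloured lines. The median moves from -1.07 over days 4 to 8 to -0.82 and then -0.27, while miR-1949 is above 0 only over days 8 to 10.

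Markers of other cell types were checked in the same libraries. The neuron, muscle and liver lists summed to at most 0.687 RPM in any of the 6 libraries, with reads on 4 of 7, 2 of 11 and 1 of 2 identifiers. The blood list was at a mean of 694 RPM at day 0, at 34.6, 21.9 and 26.0 RPM at day 8 and 7.28, 3.93 and 4.65 RPM at day 10. It had reads on 4 of 6 identifiers. All 4 were tested and fell (65.8% over all tested), with a median of -2.27. They were led by miR-142a-3p at -3.43 ± 0.75 (edgeR adjusted p = 0.000329) and miR-142a-5p at -2.82 ± 0.34 (2.26e-07). The value of miR-142a-3p rests on 22, 11 and 3 reads at day 8 and 1, 2 and 0 reads at day 10. The fall of miR-150-5p, at -0.92 (edgeR adjusted p = 0.0225), missed the threshold under 5 alternatives, among them leaving out replicate 3 of day 8 (-0.51, 0.202) or replicate 2 of day 10 (-0.77, 0.0995).

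The fibroblast list had reads on 6 of 10 identifiers and summed to 13.7, 10.0 and 12.7 RPM at day 8 and 2.75, 3.09 and 45.3 RPM at day 10. Nearly all of the last value was miR-143-3p, a microRNA of smooth muscle and fibroblasts, which stood at 12.5, 9.72 and 11.8 RPM and then 2.34, 2.95 and 44.8 RPM. Its log2 change was 0.56 ± 0.66 (edgeR adjusted p = 0.486), and without replicate 3 of day 10 it fell by 2.09 (0.00127). miR-10b-5p, a microRNA of the Hoxd locus, was high in the same library, with 13.7, 7.13 and 8.85 RPM and then 4.61, 5.05 and 20.3 RPM; its log2 change was 0.02 ± 0.44 (0.979), and without that library it fell by 1.03 (0.0322). Whether that library held other cells or reads of another sample was not tested.

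Features of the sequence that the comparison did not use were set beside the changes as a description. Across the 227 tested microRNAs with a sequence, GC content and log2 change in RPM had a Pearson r of 0.21 and a Spearman rho of 0.215, length an r of -0.05, and across the 50 with a sequence and at least 10 RPM at day 8 GC content had an r of 0.47 and a rho of 0.36. All points come from the same 6 libraries, and microRNAs of a cluster are not independent. The 50 include the suspected entries miR-2137, miR-6236 and miR-6240, at 85.7%, 78.9% and 69.2% GC and log2 changes of 0.04, -0.38 and 0.12. They also include miR-5126 and miR-6538, at 100% and 94.7% GC and log2 changes of -0.21 and -0.86. The correlation without these entries was not computed. Of the 61 microRNAs with at least 10 RPM at day 8, 50 fell in RPM (median -1.94), 29 kept at most 25% and 9 kept at least 75%.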

How the data were processed

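The deposited values are raw counts per mature microRNA entry. Per the labels' protocols, the authors made TruSeq small RNA libraries, removed adapters from 50-base reads with cutadapt 1.8, aligned them to mm10 with Bowtie2 and counted them over miRBase 21 with HTSeq; the mapping quality limit is not given in the sources used here. Reads with several equal hits can be left out by that limit, so microRNAs with identical copies can be undercounted. The 2045 entries were summed to 1907 identifiers, of which 1905 were named from RefSeq's annotation, and the 5 HTSeq summary lines were used for library totals only.

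One edgeR 4.0.16 quasi-likelihood model (R 4.3.3) was fitted to all 15 small RNA libraries, with 1 coefficient per day and filterByExpr by day, on 2 scalings: all reads of a library (RPM) and TMM. It had 10 residual degrees of freedom. DESeq2 1.42.0 was an alternative. The fits were tested on simulated data. The simulated loss shared by the microRNAs was smaller than the median loss here, and a common dispersion served for all. The simulation therefore cannot show how the calls behave at the observed loss. Arms were compared in a model with a term per library, a test added after values had been seen. The members, lists and tests were chosen with earlier results of these data known. Named microRNAs were list members, the 10 most abundant at each day, and the 12 largest rises and falls past the threshold with at least 50 reads per 1000000 microRNA reads; miR-10b-5p, miR-191-5p, miR-298-5p and arms below that level were singled out after their values were seen. Sequences on chromosome 18 are not printed.

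Replicates differed beyond sampling noise (chi-square per degree of freedom 13.8 to 19.2). Libraries of the 2 days with the same replicate number deviated together in RPM. The correlations over 260 microRNAs were 0.26, 0.33 and 0.16 for numbers 1, 2 and 3 (0.21, 0.08 and 0.12 with TMM). A pairing by number was thus read from the data and not from the labels. The main tests did not use it, and the fits with the replicate number as a block are given as alternatives.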

Additional observations from a re-analysis of the deposited data

Results flagged for a closer look

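The pace of loss differed between neighbouring intervals for some microRNAs by a direct test in 1 model. Against days 4 to 8, 15 microRNAs had another daily change in RPM from day 8 to day 10, among them miR-1949 (difference 1.39 ± 0.24 in log2 per day, edgeR adjusted p = 0.00104) and miR-6539. Against days 10 to 12 it was 35 microRNAs, with miR-1949 (-2.96 ± 0.28, edgeR adjusted p = 1.54e-08) and miR-191-5p among the firmest. For miR-143-3p the later difference was -1.85 ± 0.56 (edgeR adjusted p = 0.0302), and it went to 0.80 when replicate 3 of day 10 was left out.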

How the results depend on the processing

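In RPM, calls ranged from 130 to 200 when libraries were left out, and the fall of total microRNA share from 1.61-fold to 2.12-fold. Relative calls ranged from 56 (without replicate 1 of every day, a setting chosen after seeing the data) to 121. With all microRNA reads as library size and with DESeq2 they lay above that range. Calls on the daily change ranged from 2 to 19 against days 4 to 8 and from 5 to 44 against days 10 to 12; with DESeq2 the former were 25, and with aligned reads as library size they were 5 and 11. With the replicate number as a block there were 173 calls in RPM, 103 relative to other microRNAs, 14 and 34 on the daily change, and a total share 1.89-fold lower (exact sign-flip p = 0.25, the smallest 3 pairs can give); it changed the call of miR-182-5p in RPM and ended that of the earlier daily difference of miR-5099 (-0.55), and changed no other call of a named microRNA.

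Of 1415 alternatives for 101 single values, 1290 kept direction and side of the threshold, 84 lost it, 11 gained it and 30 turned sign, 25 of these past the threshold in neither setting. Leaving out libraries took the log2 change in RPM of miR-182-3p from -0.28 to 0.22, of miR-2137 from -0.0777 to 0.23, of miR-6240 from -0.17 to 0.28, of miR-6236 from -0.90 to 0.00044, of miR-295-5p from -0.67 to 0.25, of miR-101a-5p from -0.0502 to 0.39, of miR-16-5p from -0.52 to 0.83, of miR-143-3p from -2.09 to 1.15, of miR-10b-5p from -1.03 to 0.67 and of miR-877-5p from -0.54 to 0.34, and the later daily difference of miR-143-3p from -2.37 to 0.80. With the block, miR-16-5p was at 0.18, miR-143-3p at -0.14 and miR-10b-5p at -0.21. With aligned reads as library size miR-16-5p was at 0.0025, and with reads on no feature (added after seeing the data) miR-2137 was at -0.12, miR-6240 at -0.0497 and miR-10b-5p at -0.18. With all microRNA reads as library size, relative changes were -0.0424 for miR-183-5p and -0.11 for miR-5099. The cause was not tested. Depth limits the microRNAs near or under 1 RPM, which rest on few reads per library.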
